A study of Mus musculus with 4 samples.

Results

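The genes described here are the 2 arginases of the mouse and 7 genes whose products make, hold in check or break down polyamines, as measured by RNA sequencing of lung group 2 innate lymphoid cells (ILC2s). They are Arg1, Arg2, Odc1, Oaz1, Amd1, Srm, Sms, Sat1 and Smox, taken by name from the deposited table of counts, and all 9 of the 9 had a row among the 22554 genes of the table. The cells came from BALB/c mice of 6 weeks, were sorted from lung, and were kept in culture with IL-2, IL-7 and IL-33 in every group. Vehicle was added in 2 libraries and compound 5D, a small molecule that blocks the Orai calcium channels of the plasma membrane, in the other 2. The labels give an overnight culture and a single age, and the dose of 5D used for these libraries is not given in the sources used here. The comparison of 5D with vehicle asks which transcripts of activated ILC2s differ when calcium entry through these channels is blocked. Nothing in the labels says whether the libraries of a group came from separate animals or cultures, so the p-values below measure only the spread between these libraries, which may be technical.

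Arginase splits arginine into urea and ornithine. Ornithine is the entry point of polyamine synthesis: ornithine decarboxylase, the product of Odc1, turns it into putrescine, and spermidine synthase (Srm) and spermine synthase (Sms) each add an aminopropyl group, which S-adenosylmethionine decarboxylase (Amd1) prepares. Antizyme (Oaz1) binds ornithine decarboxylase and hands it to the proteasome, and its own translation needs a ribosomal frameshift that polyamines favour. Breakdown runs through spermidine/spermine acetyltransferase (Sat1) and spermine oxidase (Smox). Arginase 1 is well known from alternatively activated macrophages and from ILC2s, where it is constitutively made and helps to sustain growth and type 2 cytokine output.

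For several of these genes the genome holds near-identical copies, so the sequences that decide how reads are counted are shown first. Genes that shared at least 150 bases at 95% identity or more with a transcript of a member were searched in the GENCODE M21 transcripts, and 0 were found for Arg1, Srm and Smox, while the 2 found for Sat1 had at most 4 counts. Sms shared 1101 bases at 100% identity with the copy Sms-ps, which had 397 to 623 counts per library. The stretch from chrX:157470047-157470106 (mm10, minus strand) in Sms and from chrX:62776575-62776634 (minus strand) in Sms-ps is shown because it differed at 0 of its 60 bases, so that a read from it cannot be placed by its letters.
Sms: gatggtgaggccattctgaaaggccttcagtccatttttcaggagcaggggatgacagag
Sms-ps: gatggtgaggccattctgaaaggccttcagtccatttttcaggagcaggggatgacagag

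Amd1 and its copy Amd2 shared 3202 bases at 99.6% identity, and Amd2 had 165 to 277 counts. The copy Amd-ps3 matched Amd1 over 1005 bases at 99.9% identity and had at most 14 counts. The stretches of Amd1 at chr10:40290184-40290243 and of Amd2 at chr10:35710762-35710821, both on the minus strand, differ only at the base in capitals. A read from within this stretch could be assigned only by that base, and the genes differ at other bases elsewhere.
Amd1: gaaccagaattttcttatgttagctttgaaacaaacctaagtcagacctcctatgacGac
Amd2: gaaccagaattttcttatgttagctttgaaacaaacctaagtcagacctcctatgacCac

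Odc1 had 13 such genes, 10 of them with a row in the table. The copy Gm7993 was the one with most counts, at 551 to 742 per library, and matched Odc1 over 1388 bases at 95.7% identity. The start of the Odc1 coding sequence at chr12:17547299-17547358 (plus strand) and the stretch of Gm7993 at chr5:95974240-95974299 (plus strand) differ at the base in capitals.
Odc1: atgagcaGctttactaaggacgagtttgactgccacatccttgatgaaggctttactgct
Gm7993: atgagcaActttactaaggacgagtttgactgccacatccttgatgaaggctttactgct

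Oaz1 is shown for its frameshift site, with the stop codon TGA of the first reading frame and the codon before it in capitals (chr10:80828265-80828324, plus strand). In the coding model of the annotation 1 base of this site is left out, which joins both reading frames, and the model therefore has 59 bases where the transcript has 60. The capitals in the model mark the letters on either side of the base left out. The copy Oaz1-ps, at chr17:17345907-17345966 on the minus strand, carries the same 60 letters, matched Oaz1 over 685 bases at 99.3% identity and had 2071 to 2896 counts.
Oaz1: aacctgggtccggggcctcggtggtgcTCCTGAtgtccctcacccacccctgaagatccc
Oaz1-ps: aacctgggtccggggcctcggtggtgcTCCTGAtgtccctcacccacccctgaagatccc
Oaz1 coding model: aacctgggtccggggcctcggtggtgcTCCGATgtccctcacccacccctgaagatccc

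The libraries held 23239764 and 20096513 counts with vehicle and 26912647 and 28697196 with 5D, after rounding of the deposited estimates. All 11 ILC2 markers were measured, and their summed level lay between 9405 and 10216 normalized CPM (counts scaled to a common library total) over the 4 libraries, with Gata3 at 1091 to 1108. Of the 11, 4 were lower with 5D at an unadjusted p under 0.05 in edgeR's test (Klrg1, Il2ra, Thy1 and Il5), where 3.84% of all tested genes were, and 1 was higher (Il1rl1), where 3.5% were. After adjustment 0 passed. Of the markers of other cells, S100a9, Cd4, Mcpt4, Scgb1a1 and Pdgfra had 0 counts in every library, but others of the same lists had counts. Xcr1 of dendritic cells, Cd3g of T cells and Epcam of epithelium stood at 35.2 to 38.8, 21.6 to 24.6 and 25.5 to 27.7 normalized CPM, with overlapping groups for Xcr1 and Epcam and slightly higher values in both 5D libraries for Cd3g (edgeR unadjusted p = 0.412). Cd3e had 63 to 112 counts and Trac at most 8. Of the other dendritic cell markers with a row, Itgax had 7 to 20 counts and Zbtb46 15 to 21. Sftpc of epithelium had at most 4 counts. Among mast cell and basophil markers Cpa3 had 25 to 81 counts, Mcpt8 7 to 30 and Fcer1a 11 to 61, and Fcer1a was higher in both 5D libraries (log2 fold change 1.10, SE 0.54, edgeR adjusted p = 0.712). Pecam1 of endothelium stood at 23.7 and 21.3 normalized CPM with vehicle and at 19.9 and 15.7 with 5D. Its groups did not overlap, with a log2 fold change of -0.34 (SE 0.15, edgeR unadjusted p = 0.0392, adjusted p = 0.642). The part of these markers in the results below was not tested, and in bulk RNA fewer cells of a type and less RNA per cell cannot be told apart.

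The genes spanned a wide range of levels in activated ILC2s. On the scale of normalized CPM per kb of exon, Oaz1 was highest with a 4-library mean of 407 and Arg1 came next with 237. The divisor is the union of all annotated exons, which can be longer than a single transcript, so genes can be compared only roughly. It was 2558 bases for Oaz1, 2774 for Sat1, 3405 for Odc1 and 1599 for Srm. Their longest coding sequences were 681, 534, 1383 and 906 bases, so the order of the genes can depend on the divisor. Arg1 was above 98.7% and Oaz1 above 99.4% of the tested genes on that scale. Srm and Odc1 followed with levels per kb of 77.0 and 74.1, and the ranges of these neighbours over the libraries overlapped. Sat1 stood at 35.6 per kb, and Smox and Amd1, whose ranges also overlapped, at 26.8 and 26.7. Sms was lower with 12.02 per kb, and Arg2 was last with 0.0829. The step from Sms down to Arg2 was 145-fold.

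**Figure D1:**
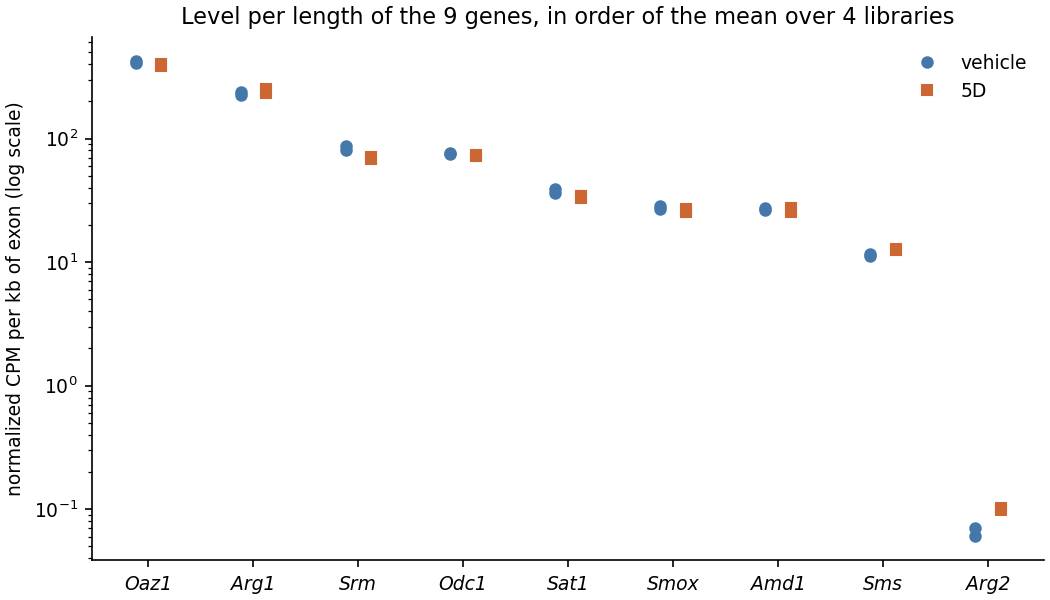
Each point is 1 library and gives the level of a gene as normalized CPM per kb of exon on a log axis, with circles for vehicle and squares for 5D, and genes in order of their mean. The order runs from Oaz1, with a mean of 407, to Arg2, with 0.0829. The Srm values of the vehicle libraries lie above those of Odc1 whereas the 5D values lie below. Whether Srm lies above Odc1 depends on the exon length by which each was divided.

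The arginases were, in these cells, Arg1. Arg1 (chr10:24915221-24927484, minus strand, mm10) had 11545 and 10630 counts with vehicle and 14216 and 15935 with 5D, whereas Arg2, the mitochondrial isoform (chr12:79130777-79156301, plus strand), had 2, 2, 4 and 4. Arg1 therefore made up 99.97% to 99.98% of the counts on both genes in every library. Scaled for depth, Arg1 stood at 497 and 531 normalized CPM with vehicle and at 524 and 557 with 5D. The groups overlapped, since the lower 5D library fell below the higher vehicle library. The log2 fold change of 5D against vehicle was 0.07 (SE 0.05, 95% interval -0.03 to 0.18, edgeR quasi-likelihood test with Benjamini-Hochberg adjustment, adjusted p = 0.818), and the interval of the difference in percent ran from -2.39% to 13.3%. Leaving out 1 library moved the log2 fold change to 0.02 without the first vehicle library and to 0.12 without the second (edgeR unadjusted p = 0.0504), to 0.11 without the first 5D library and to 0.03 without the second.

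For Arg2 the depth allowed no statement about a difference. Its normalized CPM was 0.0861 and 0.0999 with vehicle and 0.147 and 0.140 with 5D. The values of the groups did not overlap, but they rest on 4 counts against 8. The ratio of the summed counts, scaled for depth, was 1.55 with a 95% counting interval of 0.416 to 7.04, which covers counting error only. The exons of Arg2 also overlap those of Vti1b on the other strand over 285 bases, and Vti1b had 2127 to 3203 counts, so even these few Arg2 counts are uncertain because the counting is not stated to use strand.

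Since macrophages are the other well-known source of Arg1, their markers were set beside it, although the gate that the study gives for lung ILC2s leaves out cells with CD11b, CD11c or Gr-1. Of 10 macrophage markers 5 had a row, and the defining receptors Adgre1 and Csf1r had at most 5 and at most 2 counts in a library. The summed level of the 5 markers was 10.8 and 11.6 normalized CPM with vehicle and 4.42 and 12.4 with 5D. Chil3 had 181 and 117 counts with vehicle and 1 and 235 with 5D, and made up most of the sum in every library except the first 5D library. There nearly all of it was Cd68, which stood at 2.71 and 3.65 normalized CPM with vehicle and at 4.02 and 3.99 with 5D (log2 fold change 0.34, SE 0.27, edgeR adjusted p = 0.861). Lyz2 was highest in the second vehicle library, with 35 counts. The part of macrophage RNA in the Arg1 values was not tested.

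The rate-limiting enzyme and its inhibitor were both well expressed. Odc1 (chr12:17544794-17551505, plus strand) had 257 and 258 normalized CPM with vehicle and 247 and 248 with 5D. The values within each group lay close together and both 5D libraries were below both vehicle libraries. The difference was small and did not pass the test, with a log2 fold change of -0.06 (SE 0.05, 95% interval -0.16 to 0.05, edgeR adjusted p = 0.865). Oaz1 (chr10:80826656-80829290, plus strand) stood at 1047 and 1094 normalized CPM with vehicle and at 1025 and 997 with 5D. Again the groups did not overlap, with a log2 fold change of -0.08 (SE 0.04, edgeR unadjusted p = 0.0572, adjusted p = 0.688). The unadjusted p was 0.0287 without the first vehicle library and 0.0449 without the first 5D library, and 0.330 and 0.212 without the second of either group. The ratio of Oaz1 to Odc1 counts was 4.08 and 4.23 with vehicle and 4.16 and 4.02 with 5D. These ratios overlapped between the groups. The counts of Oaz1-ps came to 8.58% to 9.37% of the sum when they were added to those of Oaz1. The log2 fold change was then -0.07 with an edgeR unadjusted p of 0.0823. The ratio of Oaz1 to Oaz1-ps counts was 10.7 and 10.6 with vehicle and 9.68 and 9.84 with 5D. Whether the placing of reads between Oaz1 and its copy differed was not tested.

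Of the 3 genes that build spermidine and spermine, Srm showed the largest difference between the groups among the 8 genes with more than 10 counts in every library. Srm (chr4:148591503-148594993, plus strand), which makes spermidine from putrescine, stood at 130 and 140 normalized CPM with vehicle and at 109 and 114 with 5D. Both 5D libraries were below both vehicle libraries, with means of 111 ± 3.81 (SD, n = 2) against 135 ± 7.33 (SD, n = 2). The log2 fold change was -0.28 (SE 0.07, 95% interval -0.42 to -0.13), which is a fold of 0.826. The unadjusted p was 0.00140 with edgeR, rank 71 among the 17650 genes tested, and the adjusted p was 0.344, so Srm did not pass the adjusted threshold. DESeq2's Wald test gave an adjusted p of 0.0415 for the same gene, and without the first vehicle library edgeR gave 0.0135. The log2 fold change lay between -0.33 and -0.22 when each library was left out in turn, and edgeR's adjusted p then ranged from 0.0135 to 0.573.

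The other genes of this step, Amd1 and Sms, had an unadjusted p above 0.05. Amd1 (chr10:40287458-40302186, minus strand) stood at 97.5 and 94.2 normalized CPM with vehicle and at 89.7 and 97.2 with 5D. The groups overlapped, the log2 fold change was -0.04 (SE 0.07, 95% interval -0.19 to 0.12, edgeR adjusted p = 0.957), and its sign turned to 0.016 without the first 5D library. Sms (chrX:157443855-157492287, minus strand), which turns spermidine into spermine, was instead higher in both 5D libraries, with 77.0 and 75.0 normalized CPM against 67.0 and 69.9 with vehicle. The log2 fold change was 0.15 (SE 0.07, 95% interval -0.01 to 0.31, edgeR unadjusted p = 0.0649, adjusted p = 0.712), and so the difference did not pass the test. When the counts of its 2 copies with a row in the table, which came to 22.1% to 24.3% of the sum, were added to those of Sms, the log2 fold change was 0.14 with an unadjusted p of 0.0612.

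The ratio of Srm to Sms counts was 1.93 and 2.00 with vehicle and 1.41 and 1.52 with 5D. The 5D ratios were thus 0.744 of the vehicle ratios on average, with no overlap. This ratio was chosen after the values were seen and is given as a description without a test. The ratio of Odc1 to Srm counts, which sets the enzyme before Srm against it, was 1.98 and 1.85 with vehicle and 2.27 and 2.18 with 5D.

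**Figure D2:**
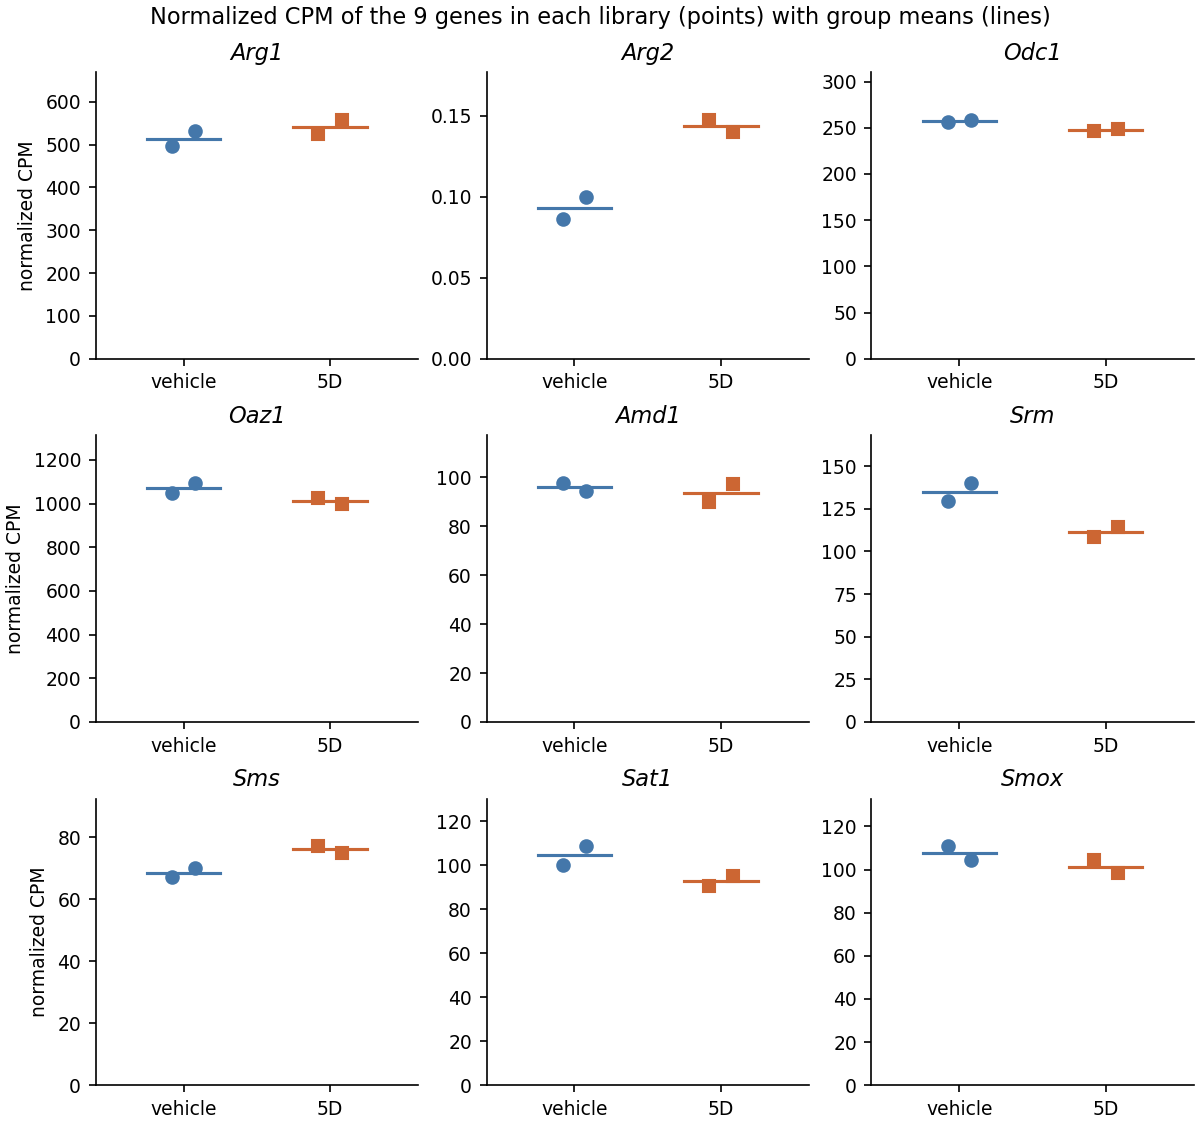
Each panel shows 1 gene, with 1 point per library in normalized CPM from 0, circles for vehicle, squares for 5D and a line at the mean of each group. The group mean of Srm is 135 with vehicle and 111 with 5D, that of Sms 68.5 and 76.0, and the points of Arg1 and Amd1 overlapped.

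Both breakdown genes had lower mean values with 5D, and Sat1 reached an unadjusted p under 0.05. Sat1 (chrX:155213132-155216449, minus strand), which acetylates spermidine and spermine for export or oxidation, stood at 100 and 109 normalized CPM with vehicle and at 90.8 and 95.1 with 5D. Its groups did not overlap, and the log2 fold change was -0.17 (SE 0.07, 95% interval -0.32 to -0.01, edgeR unadjusted p = 0.0350, adjusted p = 0.634). This rested on 2 libraries. Without the second vehicle library the log2 fold change was -0.11 and edgeR's unadjusted p 0.221, and without the first 5D library they were -0.14 and 0.148. Smox (chr2:131491496-131525922, plus strand), which oxidises spermine directly back to spermidine, stood at 111 and 104 normalized CPM with vehicle and at 104 and 98.2 with 5D. Its groups were all but touching, and the log2 fold change of -0.09 (SE 0.07, edgeR adjusted p = 0.844) did not pass the test. The ratio of Sat1 to Smox counts overlapped between the groups, with 0.905 and 1.04 for vehicle and 0.869 and 0.969 for 5D.

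Counted together, 0 of the 9 genes passed an adjusted p under 0.05 in edgeR's test, where 0.0963% of all 17650 tested genes did. All 9 had passed the filter on low counts, Arg2 only narrowly. At an unadjusted p under 0.05, 2 genes (Srm and Sat1) were called in either direction, both lower with 5D. Over all tested genes 7.34% were called at that threshold, 3.84% lower and 3.5% higher. DESeq2's Wald test called 1 of the 9 after adjustment, and 58 of all 17650 tested genes, where edgeR's test called 17. Both libraries of one group lay beyond both of the other for 5 genes that were lower and 2 that were higher with 5D, and over all tested genes this held for 18.8% and 18.7%. The log2 fold change was negative for 6 genes and positive for 3, with a median of -0.06 against -0.0016 over all tested genes.

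**Figure D3:**
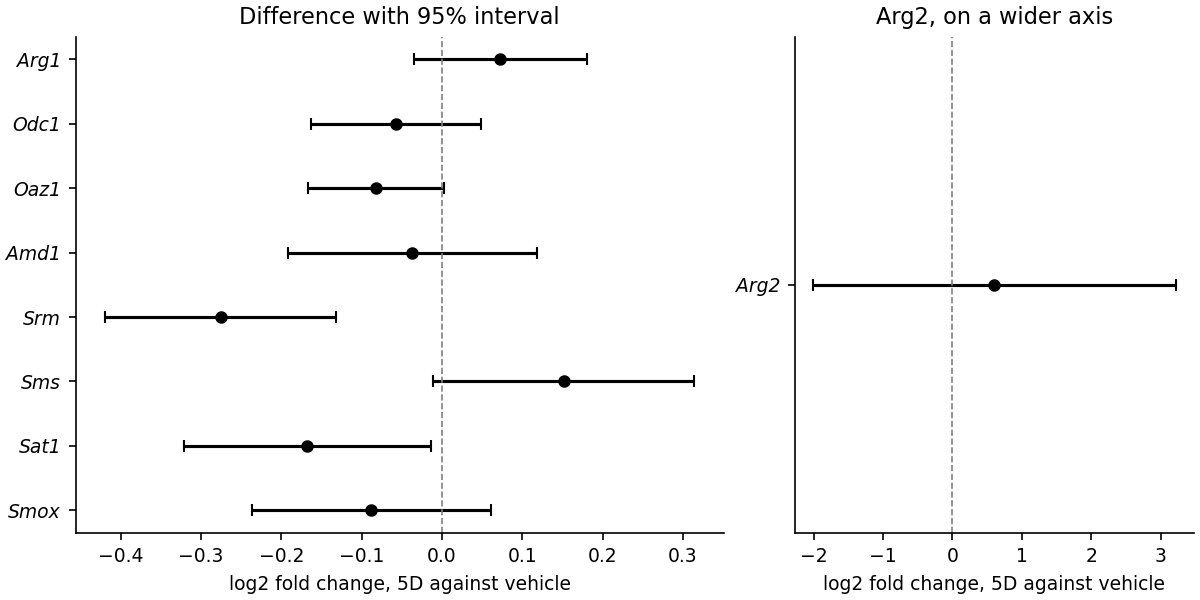
Points give the log2 fold change of 5D against vehicle from edgeR's fit and bars its 95% interval, with Arg2 on a wider axis of its own. The intervals of Srm (-0.42 to -0.13) and Sat1 (-0.32 to -0.01) lie below 0, and those of the other genes include it.

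**Figure D4:**
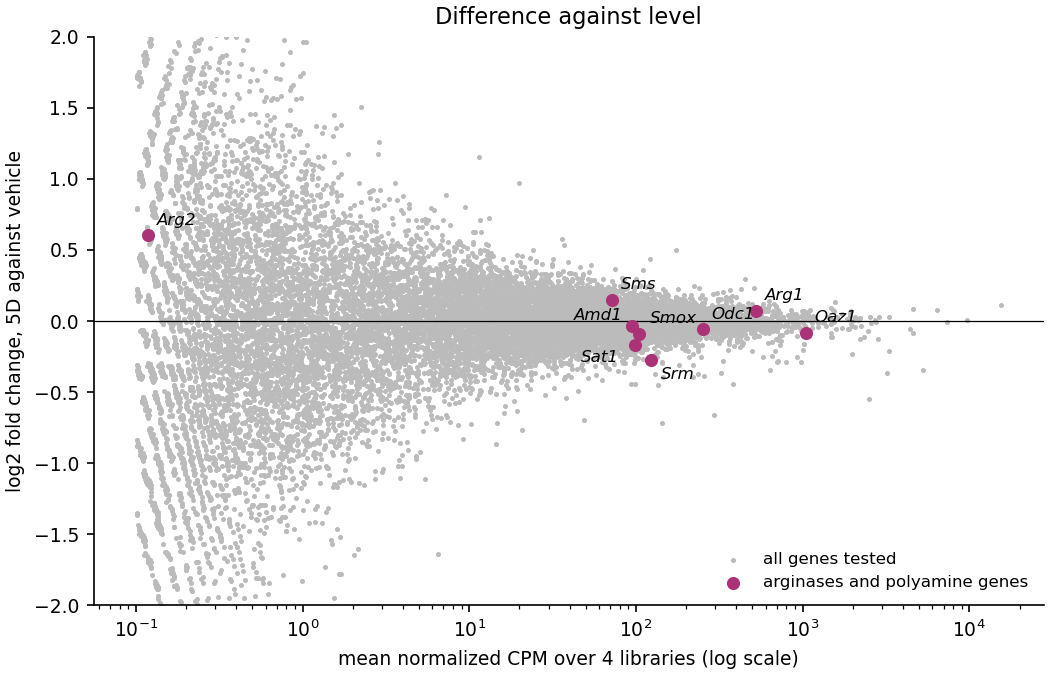
Grey points are all genes tested, with the mean normalized CPM over the 4 libraries on a log axis and the log2 fold change of 5D against vehicle on the other, and the 9 genes are marked (504 genes beyond 2 on the log2 scale are not drawn). Srm, at -0.28, has the lowest value of the 9, and Arg2 lies in the wide spread of genes with few counts.

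Beside these genes, 7 lists cover the supply and use of arginine and ornithine, S-adenosylmethionine, antizymes, breakdown, transport and hypusine, the modified lysine that is made from spermidine. Of 49 genes listed, 43 had a row and 37 were tested. At an unadjusted p under 0.05 in edgeR's test 1 was lower with 5D, where 3.84% of all tested genes were, and 1 was higher, where 3.5% were. After adjustment 0 passed, where 0.0963% of all tested genes did. The median log2 fold change of the listed genes was -0.01. The gene that was lower was Slc3a2, the heavy chain shared by several amino acid transporters and also described in diamine export. It stood at 756 and 789 normalized CPM with vehicle and at 697 and 680 with 5D. The groups did not overlap, and the log2 fold change was -0.17 (SE 0.04, edgeR unadjusted p = 0.00174, adjusted p = 0.361). Slc3a2 passed adjustment with DESeq2's Wald test (adjusted p = 0.0192) and in edgeR without the first vehicle library (adjusted p = 0.0427). Without each of the other libraries edgeR's adjusted p was between 0.375 and 0.757. The gene that was higher was Dhps, deoxyhypusine synthase, which moves a part of spermidine onto the translation factor eIF5A. It stood at 42.9 and 43.6 normalized CPM with vehicle and at 49.7 and 54.2 with 5D, a log2 fold change of 0.27 (SE 0.09, edgeR unadjusted p = 0.0136, adjusted p = 0.554). Without the second 5D library its log2 fold change was 0.20 and the unadjusted p 0.115. The exons of Dhps overlap those of Wdr83 on the other strand over 128 bases.

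Slc3a2 also had the highest level per kb of exon in the transport list, with 207 normalized CPM per kb. The genes with the highest level per kb in the other 6 lists had an unadjusted p above 0.05. Eif5a, the hypusine-bearing factor itself, had a mean level of 671 normalized CPM per kb and a log2 fold change of -0.05 (SE 0.03, edgeR adjusted p = 0.799). Mat2a, which makes S-adenosylmethionine, stood at 93.1 per kb, with a log2 fold change of -0.10 (SE 0.05, edgeR adjusted p = 0.688). Oat, which diverts ornithine towards proline and glutamate, stood at 57.6 per kb, with a log2 fold change of -0.06 (SE 0.06). Azin1, the antizyme inhibitor, stood at 24.9 per kb, with a log2 fold change of 0.03 (SE 0.06). Ass1, which acts on citrulline in the remaking of arginine, stood at 13.7 per kb, with -0.08 (SE 0.10). Paox, which oxidises acetylated polyamines, stood at 1.30 per kb, with 0.28 (SE 0.22). The nitric oxide synthase Nos2, which competes with arginase for arginine and was looked up after the values were seen, had 0 and 1 counts with vehicle and 2 and 5 with 5D and was not tested.

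**Figure D5:**
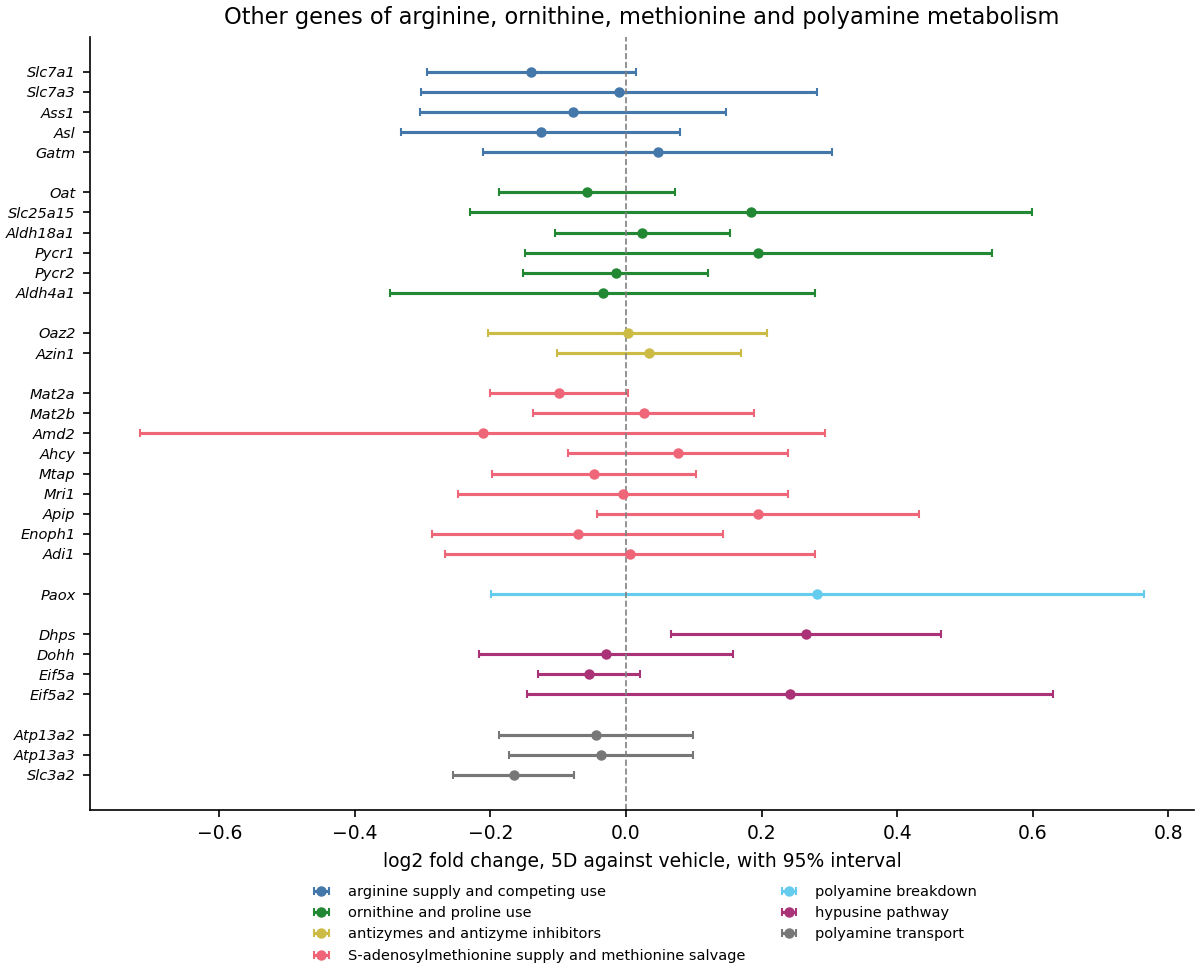
Each row is 1 of the 30 tested pathway genes with a mean of at least 5 normalized CPM, with the log2 fold change of 5D against vehicle and its 95% interval, coloured by list. The intervals of Slc3a2, at -0.17, and of Dhps, at 0.27, lie to either side of 0, and the others include it.

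The genes whose pattern over the 4 libraries was most like that of Arg1 were Phf5a, a splicing factor subunit, Mlx, a transcription factor, and Klhl6. Likeness was taken as the smallest root mean square difference in log2 normalized CPM, each gene as deviation from its own mean, among 8736 genes with a mean of at least 10 normalized CPM, and it was 0.0054, 0.0066 and 0.0075. For Srm the nearest were Hyal2, a hyaluronidase, Pfas, an enzyme of purine synthesis, and Ino80d, with 0.0086, 0.0094 and 0.0099. Pfas stood at 31.4 and 33.5 normalized CPM with vehicle and at 25.9 and 27.2 with 5D. The order is a description over 4 libraries.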

How the data were processed

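RNA was sequenced on a NextSeq 500 system from ILC2s of 2 vehicle and 2 5D libraries, grouped by the treatment in the labels. Per the submitters' notes and the study's methods, the authors aligned reads with STAR 2.6.1 to mm10 with GENCODE M21, quantified them in Partek, and deposited a table of estimated counts per gene before normalization. RNA input is given in ng in the labels and in pg in the methods. The test had been planned for whole counts, but exactly whole values made up 50.4% to 53.2% of each column, so all were rounded.

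Counts were scaled by the upper quartile over all genes, and a gene was kept if its normalized counts averaged 1 or more and summed to 10 or more (17650 tested, 4904 left out). The test was edgeR's two-sided quasi-likelihood test (edgeR 4.0.16, R 4.3.3) of 5D against vehicle with no covariates and Benjamini-Hochberg adjustment over all genes tested. The authors' Gene Set Analysis was not run. The standard error of a log2 fold change was taken from its size and its F statistic. Normalized CPM is the rounded count over the scaled library total, and levels per kb divide it by the union of GENCODE M21 exons. The biological coefficient of variation was 8.51%, and an exact permutation test of 2 against 2 libraries cannot go below p = 0.333, so none was made. The replicates of a group differed beyond counting noise, with a chi-square per gene of 5.75 and 6.26.

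The members and the lists were chosen with earlier results of these data known. Named are all 9 members, list genes at an unadjusted p under 0.05, the gene of each list with the highest level per kb, the 3 genes nearest in pattern to Arg1 and to the member with the smallest p, near-identical copies, and defining cell type markers. Listed genes with no row were not analysed here. Near-identical genes were found with BLAST 2.17.0, and sequences and coordinates are those of GENCODE M21 (for Amd1 the deposited end differs slightly). The code was tested on simulated data. Alternatives were TMM, DESeq2 size factors, DESeq2's Wald test (DESeq2 1.42.0), limma-voom (limma 3.58.1), no filter, filterByExpr, the replicate number as a block and leaving out each library. Added after the data were seen were the upper quartile after the filter, unrounded counts, copies added to their member, and libraries thinned to the smallest total. Plots were made in Python 3.11.15 with matplotlib 3.10.9.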

Additional observations from a re-analysis of the deposited data

How the results depend on the processing

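Of the 9 genes, 0 passed the adjusted threshold in the main test, 1 (Srm) with DESeq2's Wald test, and 0 to 1 when a library was left out, the 1 being Srm without the first vehicle library. At an unadjusted p under 0.05 the main test called 2, both lower with 5D, where 7.34% of all tested genes were called. Without the second vehicle library the log2 fold change of Srm was -0.22 and that of Sat1 -0.11. With limma-voom 4 of the pathway list genes passed an unadjusted p under 0.05, and 1313 of all 17650 tested genes did. The main test called 2 of the pathway list genes and 1296 of all tested genes at that threshold. After adjustment 1 pathway list gene (Slc3a2) passed with DESeq2's Wald test. Leaving out a library leaves 1 library in a group, which is assumed to vary like the other group. The causes of these shifts were not tested. The sign of Amd1 turned in 1 of 15 settings, to 0.016 without the first 5D library (range when leaving out a library -0.10 to 0.016), and the signs of Srm, Slc3a2, Dhps and the other members held in every setting in which they were tested. Arg2 was tested in 9 of the 15.

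With the replicate number as a block, 0 members passed adjustment, with an edgeR adjusted p of 0.146 for Srm. At an unadjusted p under 0.05, 3 members were lower (Oaz1 joining Srm and Sat1) and 3 pathway genes passed. Of all 17650 tested genes 1356 passed that threshold, against 1296 without the replicate block. After adjustment 41 genes of the table passed, against 17 without the replicate block. The same-numbered libraries share a number and nothing else in the labels. The correlation of their deviations was 0.015 over all tested genes and 0.061 over the 8737 genes of at least 10 normalized CPM. The alternatives moved the median log2 fold change of all tested genes to -0.0146 at most. All genes past adjustment numbered 58 with DESeq2's Wald test, 32 with limma-voom, 46 with no filter and 15 to 180 when a library was left out, the largest without the first vehicle library. Depth limits Arg2, Nos1 and Nos2, which had at most 5 counts in a library, and Nos3, with 9 to 14 counts, had an interval of -1.68 to 1.44 on the log2 scale.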
